A study of Homo sapiens with 6 samples.

Results

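The EGFR (ErbB) family consists of receptor tyrosine kinases of the cell surface and the EGF-like growth factors that activate them. The ligands are made as membrane-anchored precursors and are released by metalloproteases, after which they pair the receptors into dimers that signal through the RAS-ERK and PI3K pathways. Mammary epithelial cells make several of these ligands themselves, so receptor and ligand can act within the same culture. Transcripts of 10 family genes were looked for by symbol, 3 receptors (EGFR, ERBB2, ERBB3) and 7 ligands (AREG, EREG, HBEGF, TGFA, BTC, EPGN, NRG1). Of these, 8 genes had at least 1 probe set whose annotation names a single gene, out of 19775 genes so named on the array, and they were read by 34 probe sets. AREG and EPGN were not analysed here.

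The cells were 76N, which are normal mammary epithelial cells of human origin, grown in DFCI-1 medium. In 3 cultures the cells were transfected with siRNA against Ecd, the product of ECD, a cell cycle regulator first known from Drosophila. In 3 others they were transfected with control siRNA, and each of the 6 biological replicates was read on its own 1-colour Affymetrix array. The dose of siRNA and the hours of knockdown are not given in the labels, and the values come from 1 line of cells.

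Signals are MAS5 values on a linear scale that the authors had brought to one level on all arrays. Array medians ran from 128.7 to 147.6. The targeted transcript fell. ECD had signals of 588.9, 599.8 and 542.5 in the Ecd siRNA arrays, against 1076.6, 1011.4 and 1007.2 in the control siRNA arrays, so 55.9% of the control mean remained. Changes are given as Ecd siRNA minus control siRNA on the scale log2(signal + 16), with p-values of limma adjusted by the Benjamini-Hochberg method. That of ECD was -0.82 (SE 0.10, limma adjusted p = 0.000172), and the exact two-sided permutation p was 0.1, the smallest that 3 against 3 arrays allow. Of the basal epithelial markers KRT14, KRT5 and SFN were bright in both groups, with mean signals of 22350, 16024 and 22933 with Ecd siRNA and 21386, 16435 and 23243 with control siRNA. Of the 7 basal markers tested, 3 rose (ITGB4, DSG3 and CDH3, 42.9%) and 0 fell. Together the 7 summed to between 98109 and 109825 with Ecd siRNA and between 90635 and 99361 with control siRNA, ranges that overlapped. Endothelial and immune markers were dim, the 10 of them summing to between 1123.6 and 1217.4 with Ecd siRNA and between 1303.6 and 1423.8 with control siRNA. Fibroblast markers moved with the groups. The 16 of them summed to between 6889 and 7563 with Ecd siRNA, against 4939 to 5216 with control siRNA. Of these, 8 lay above the filter, which kept the brighter 60% of probe sets (signals over 84.6), and 4 of those rose (COL5A1, FBLN1, FBN1 and COL1A1), 0 fell, and DCN, COL1A2, THY1 and TWIST1 did not pass. The 8 below it were PDGFRA, PDGFRB, LUM, COL3A1, COL6A3, POSTN, DPT and TCF21. In bulk RNA, a changed share of a cell type and changed RNA per cell cannot be told apart. The part of this fibroblast marker shift in the values below was not tested. Of the 10 luminal markers tested 3 rose (CD24, GATA3 and KRT23) and 1 fell (KRT18). Among all genes tested 10.1% rose and 11.0% fell. The luminal sums overlapped between the groups, at 43086 to 45439 with Ecd siRNA and 42910 to 44922 with control siRNA. Their brightest markers moved apart within them. CD24 averaged 16553 with Ecd siRNA and 13928 with control siRNA, against 13830 and 16332 for KRT7, which did not pass.

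Of the 5 ligand genes tested, 3 fell and 0 rose after Ecd siRNA in limma. At an unadjusted limma p under 0.05, 1 ligand gene was higher and 3 were lower, while 3 of the 3 receptor genes were higher and 0 lower. Of all genes tested 15.9% were higher and 16.4% lower at that level. NRG1, EREG and TGFA were at 30.1%, 51.8% and 69.3% of their control signal, and HBEGF and BTC did not pass the threshold. Of the receptor genes, ERBB2 rose by a small margin that most other settings did not keep, and EGFR and ERBB3 did not pass. The words rose and fell are kept for genes whose brightest probe set had a limma adjusted p under 0.05, adjusted over the 14603 genes tested. Of all those genes 21.1% passed, 11.0% lower and 10.1% higher. Among the 8 family genes 3 fell (37.5%) and 1 rose (12.5%), and the median log2 change was 0.17, beside 0.008 over all genes tested. The arrays of the Ecd siRNA group lay wholly above the control arrays in 3 family genes and wholly below them in 3, beside 18.1% and 18.3% of all genes tested.

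**Figure D1:**
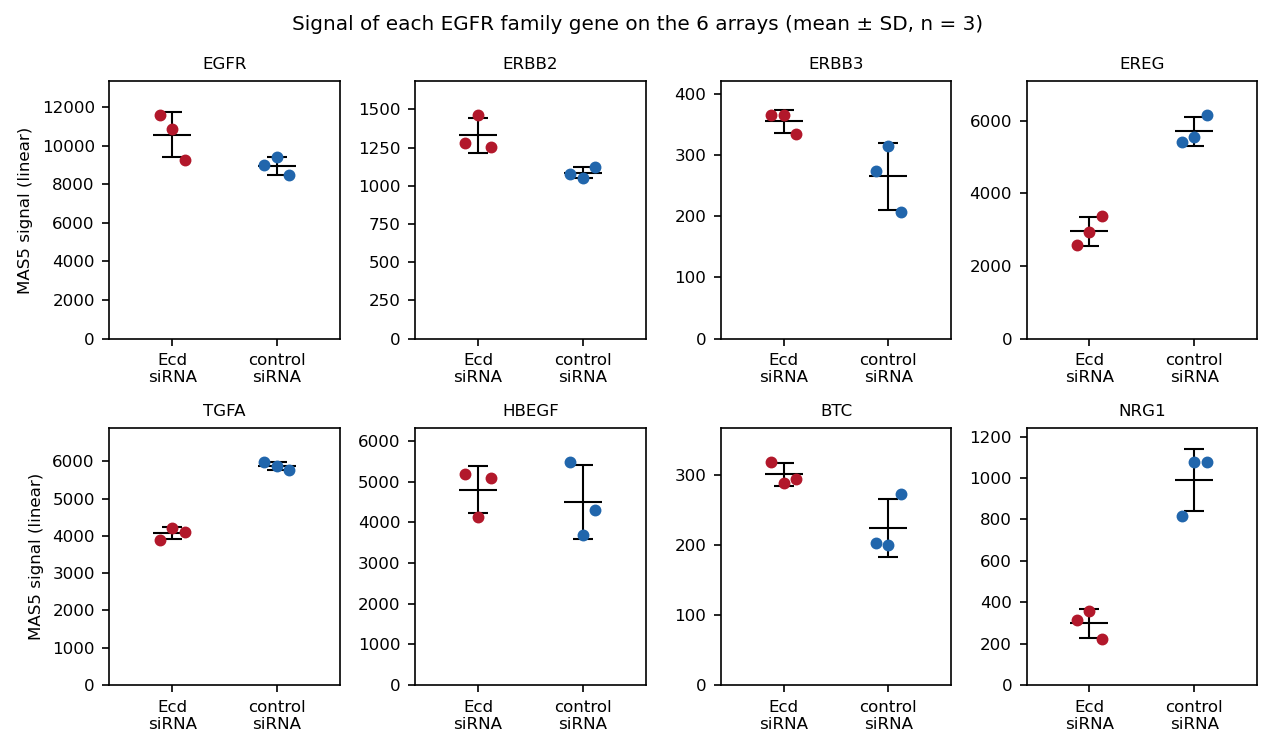
MAS5 signal (linear, vertical axes from 0) of the brightest probe set of each family gene in the 3 Ecd siRNA arrays (red) and the 3 control siRNA arrays (blue), with group mean and SD. EREG, TGFA and NRG1 lie wholly lower with Ecd siRNA, ERBB2, ERBB3 and BTC wholly higher, and EGFR and HBEGF overlap.

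EREG and TGFA are shown by the bases before their start because they are EGFR ligands whose transcripts moved the same way. The stretches are the 250 bases upstream of the RefSeq gene start in GRCh38.p14, read 5′ to 3′ along the gene's own strand. EREG lies at chr4:74364895-74365144 on the plus strand and TGFA at chr2:70553827-70554076 on the minus strand. Capitals mark matches on either strand to 5 motifs, and no matches overlapped. These were the TATA box as TATAAA, the CCAAT box by those letters, and the SP1 box as GGGCGG. The other two were the AP-1 site as TGANTCA and the cyclic AMP response element as TGACGTCA.
EREG: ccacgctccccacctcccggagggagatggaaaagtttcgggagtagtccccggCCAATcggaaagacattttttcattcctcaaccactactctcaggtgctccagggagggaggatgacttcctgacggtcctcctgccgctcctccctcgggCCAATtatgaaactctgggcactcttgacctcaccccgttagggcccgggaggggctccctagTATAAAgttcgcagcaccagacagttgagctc
TGFA: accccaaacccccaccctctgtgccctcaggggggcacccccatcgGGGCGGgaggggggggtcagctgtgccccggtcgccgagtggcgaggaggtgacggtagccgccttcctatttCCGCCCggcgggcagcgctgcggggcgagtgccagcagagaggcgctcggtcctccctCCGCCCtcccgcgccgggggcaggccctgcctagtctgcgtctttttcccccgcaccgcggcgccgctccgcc

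The EREG stretch held 1 TATAAA, whose first base was at position -32 from the start, and 2 CCAAT boxes, with no GGGCGG. The TGFA stretch held 3 GGGCGG boxes and no TATAAA or CCAAT. Over 35116 RefSeq promoters cut to the same length, 10.7% held TATAAA, 32.0% CCAAT and 42.6% GGGCGG. Neither stretch held TGANTCA or TGACGTCA, which were present in 6.57% and 1.65% of all promoters. The 2 falling EGFR ligands thus shared none of the 5 motifs in these windows. The same windows were searched in 4 other family genes, but not in NRG1, which also fell, or in ERBB3. HBEGF, which did not pass the threshold, held 5 GGGCGG boxes, EGFR held 2 and BTC held none of the motifs. In ERBB2, 1 CCAAT and 1 TGANTCA were found. A match of letters is a description and not a binding site.

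EREG encodes epiregulin, a ligand of EGFR and ERBB4. Its brightest probe set, 205767_at, had signals of 2569, 2925 and 3367.5 in the Ecd siRNA arrays and 5405.3, 5547.1 and 6152.2 in the control siRNA arrays. The highest Ecd siRNA array lay well under the lowest control array. EREG averaged 2954 ± 400.03 with Ecd siRNA and 5702 ± 396.7 with control siRNA (SD, n = 3 each). Its log2 change was -0.95 (SE 0.10) with a 95% interval of -1.17 to -0.73 (limma adjusted p = 8.02e-05). The dimmer probe set 1569583_at gave 84.4, 133.2 and 139.3 with Ecd siRNA, against 222, 238.4 and 223.5 with control siRNA. Both EREG probe sets thus fell by a like amount, the dimmer one at -0.88 (limma adjusted p over probe sets 0.0226). The dimmer probe set lost its call without control replicate 1, 2 or 3, at adjusted p of 0.0679, 0.0761 and 0.0608, and without the filter (0.0544).

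TGFA encodes transforming growth factor alpha, an EGFR ligand. Probe set 205016_at read 3899.1, 4222.4 and 4099.9 with Ecd siRNA and 5995.8, 5874 and 5763.8 with control siRNA. The arrays of each group lay close together and the groups were far apart. TGFA averaged 4074 ± 163.2 with Ecd siRNA and 5878 ± 116.0 with control siRNA (SD, n = 3 each). The log2 change was -0.53 (SE 0.06) with a 95% interval of -0.67 to -0.39 (limma adjusted p = 0.000215). Probe set 205015_s_at read 352, 392 and 475.4 with Ecd siRNA, against 794, 764.1 and 866 with control siRNA. There TGFA was at 50.3% of control, a log2 change of -0.97 (limma adjusted p = 0.000838). The third probe set, 211258_s_at, had 988.1, 1019.5 and 1132.8 with Ecd siRNA and 1040.4, 1474.4 and 1547.1 with control siRNA. The groups overlapped, and it did not pass (log2 change -0.35, limma adjusted p = 0.142). Control replicate 1 was the low control array there, and without it the value was -0.52 (limma adjusted p = 0.0183).

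The estimated log2 change ran from -0.97 to -0.35 over the 3 TGFA probe sets. The log2 ratio of 205015_s_at to 205016_at lay between -3.41 and -3.07 in the Ecd siRNA arrays and between -2.92 and -2.71 in the control siRNA arrays. The log2 changes differed by -0.44, with an exact two-sided permutation p of 0.1, the smallest possible. For 211258_s_at against 205016_at the difference was 0.18 and the groups overlapped (exact two-sided permutation p = 0.6). Each tested probe set of the family was compared in this way with the brightest of its gene, 22 pairs in all, and after Benjamini-Hochberg adjustment the lowest p was 0.314. With 3 against 3 arrays no pair could reach 0.05, so these p-values cannot show whether the probe sets differ. In EREG the difference was 0.07 and the groups overlapped.

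NRG1 encodes neuregulin 1, a ligand of ERBB3 and ERBB4 that is made in many spliced forms. It lies on chromosome 8 and was read by 6 probe sets. In the brightest, 206343_s_at, NRG1 had signals of 312.2, 359.2 and 222.7 in the Ecd siRNA arrays, against 818.8, 1080.1 and 1076.3 in the control siRNA arrays. The Ecd siRNA arrays were all under the lowest control array, and the mean was at 30.1% of the control mean. NRG1 averaged 298.0 ± 69.3 with Ecd siRNA and 991.7 ± 149.8 with control siRNA (SD, n = 3 each), and its log2 change was -1.70 (SE 0.18) with a 95% interval of -2.09 to -1.30 (limma adjusted p = 8.24e-05). In the brightest probe sets of the tested family genes this was the largest change, and its interval did not meet those of EREG or TGFA. Averaged over probe sets NRG1 was at -1.06, EREG at -0.92 and TGFA at -0.62, and each passed (limma adjusted p of 0.000602, 0.00155 and 0.00156). With names in _s or _x set aside, each gene was read by its brightest remaining probe set. There NRG1 (208241_at) was at -0.39, a smaller change than those of EREG (-0.95) and TGFA (-0.53). The dimmer NRG1 probe set of that kind, 208231_at, was at -0.72.

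All 6 NRG1 probe sets had negative changes, and 4 of them passed, where 8.62% of all probe sets tested fell. The 6 read 1 gene on the same arrays, so they are not independent of each other. Probe set 206237_s_at gave 54.2, 72.8 and 203.7 with Ecd siRNA, against 410.5, 624.7 and 421.2 with control siRNA, which is -2.15 on the log2 scale (SE 0.38, limma adjusted p = 0.00363). Ecd siRNA replicate 3 stood above the other two arrays of its group there. Probe set 208230_s_at gave 283, 246.1 and 235 with Ecd siRNA, against 550.3, 521.9 and 458.8 with control siRNA, a log2 change of -0.96 (limma adjusted p = 0.00121). Probe set 208231_at averaged 113.3 ± 11.8 with Ecd siRNA and 198.1 ± 27.3 with control siRNA (SD, n = 3 each), and fell by 0.72 (limma adjusted p = 0.0382). That last call was lost without control replicate 1, 2 or 3 (adjusted p 0.148, 0.0922 and 0.0606), without Ecd siRNA replicate 2 or 3 (0.0979 and 0.0869) and without the filter (0.0829).

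The other NRG1 probe sets overlapped between the groups. Probe set 208241_at was at -0.39 (limma adjusted p = 0.248) and 208232_x_at at -0.42 (limma adjusted p = 0.421), with 95% intervals of -0.84 to 0.07 and -1.10 to 0.27. With probe sets whose names carry _s or _x set aside, NRG1 was represented by 208241_at and its call was lost (limma adjusted p = 0.234). Set against 206343_s_at within each array, the ratio of 4 of the 5 other probe sets was higher in every Ecd siRNA array than in any control array. Their log2 changes differed from that of 206343_s_at by 0.74 (208230_s_at), 0.97 (208231_at), 1.28 (208232_x_at) and 1.31 (208241_at), each with an exact two-sided permutation p of 0.1, or 0.314 adjusted.

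**Figure D2:**
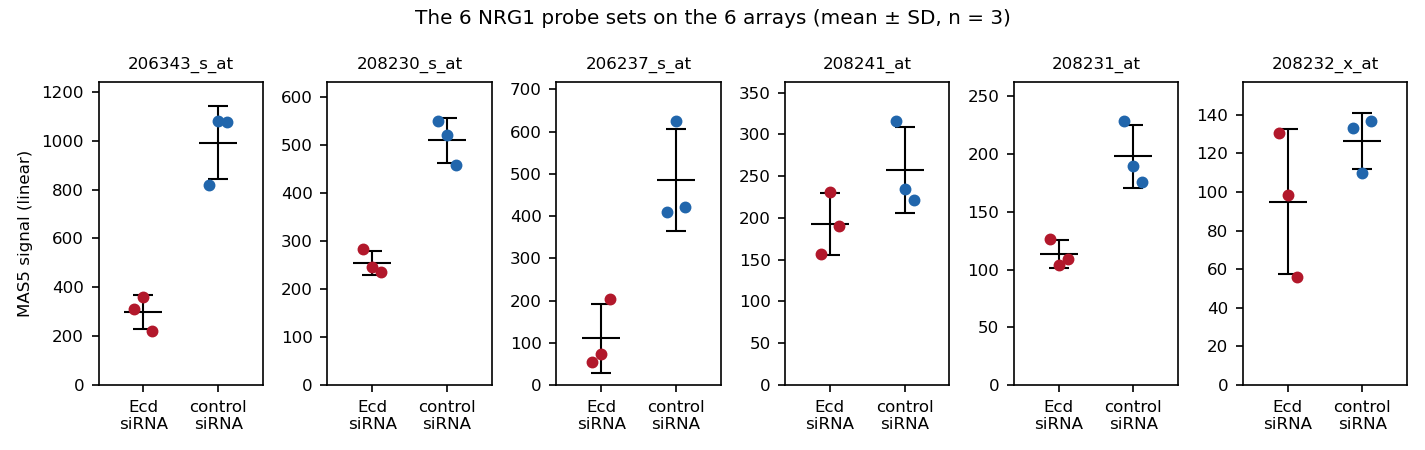
MAS5 signal (linear, vertical axes from 0) of the 6 NRG1 probe sets, ordered by mean, in the 3 Ecd siRNA arrays (red) and the 3 control siRNA arrays (blue), with group mean and SD. In 206343_s_at, 208230_s_at, 206237_s_at and 208231_at every Ecd siRNA array lies under every control array, and in 208241_at and 208232_x_at the groups overlap.

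HBEGF, the gene of heparin-binding EGF-like growth factor, which binds EGFR and ERBB4, did not pass the threshold. Its probe set 203821_at had signals of 5172.7, 4127.7 and 5089.1 with Ecd siRNA and 5491.1, 3689.9 and 4310.4 with control siRNA. The groups overlapped across most of their range. The log2 change was 0.10 with a 95% interval of -0.20 to 0.41 (limma adjusted p = 0.664), and the interval did not reach those of EREG and TGFA. Without control replicate 1 the value was 0.26 and without control replicate 2 it was -0.03, the 1 array whose loss turned the sign. The value was also 0.21 without Ecd siRNA replicate 2, 0.05 without Ecd siRNA replicate 1 and 0.06 without Ecd siRNA replicate 3, none of them past the threshold. A second bright probe set, 38037_at, averaged 2204 ± 247.0 with Ecd siRNA and 2102 ± 135.7 with control siRNA (SD, n = 3 each), at a log2 change of 0.06. Of its 2 dim probe sets, 244857_at was at -0.05 and 222076_at, at 5 to 8.1 with Ecd siRNA and 5.6 to 10.2 with control siRNA, lay below the filter.

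BTC encodes betacellulin, which binds EGFR and ERBB4. On chromosome 4 the RefSeq table of GRCh38.p14 places EPGN, EREG, AREG and BTC in that order, so BTC lies in one cluster with the falling EREG. Its probe set 241412_at read 319.8, 289.1 and 295.3 with Ecd siRNA, against 202.8, 199.8 and 273.1 with control siRNA. Every Ecd siRNA array was above every control array, yet control replicate 3 came near them. The log2 change of 0.41 had a 95% interval of 0.03 to 0.78 and did not pass (limma adjusted p = 0.12), and averaged over both probe sets it was 0.23. The second BTC probe set, 207326_at, overlapped, with 114.4 ± 16.3 in the Ecd siRNA arrays and 111.0 ± 21.5 in the control siRNA arrays (SD, n = 3 each).

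Among the receptors, EGFR, which binds EGF, TGFA and EREG, was read by 9 probe sets, of which 8 lay above the filter. None of these passed limma's adjusted threshold, and at an unadjusted p under 0.05 there were 2 higher and 0 lower, beside 14.7% and 14.3% of all probe sets tested. The brightest, 201983_s_at, had signals of 11602.6, 10873.8 and 9284.1 with Ecd siRNA and 9008.4, 9431.4 and 8493.4 with control siRNA. Ecd siRNA replicate 3 lay under control replicate 2, so the groups overlapped. The log2 change was 0.23 with a 95% interval of 0.04 to 0.42 (limma adjusted p = 0.0794), and without Ecd siRNA replicate 3 it was 0.32 and passed (limma adjusted p = 0.0125). Over the 8 probe sets, 7 changes were positive, from 0.05 to 0.51, and 1 was -0.006, with a median of 0.13. The highest, 0.51 in the dim probe set 1565484_x_at, did not pass (limma adjusted p = 0.142), and passed without control replicate 2 at 0.71 (0.0497). In 2 other bright EGFR probe sets, 224999_at and 201984_s_at, the log2 changes were 0.13 and 0.12, with intervals of -0.03 to 0.28 in each.

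ERBB2 encodes HER2, the receptor of the family that binds no known ligand and acts as a dimer partner. Probe set 216836_s_at had signals of 1277.9, 1463.1 and 1253.1 with Ecd siRNA and 1078.9, 1053.8 and 1122.9 with control siRNA. The groups did not overlap, as was true of 36.4% of all genes tested. ERBB2 averaged 1331 ± 114.8 with Ecd siRNA and 1085 ± 35.0 with control siRNA (SD, n = 3 each). The log2 change of 0.29 (SE 0.09) was just past the threshold (limma adjusted p = 0.0483). Adjusted over the 27009 probe sets it did not pass (limma adjusted p = 0.0636). The call was also lost without control replicate 1, 2 or 3 (adjusted p 0.131, 0.126 and 0.0739) and without Ecd siRNA replicate 1, 2 or 3 (0.0589, 0.163 and 0.0549). Averaged over its 3 probe sets, of which 2 lay above the filter, ERBB2 was at 0.08 (limma adjusted p = 0.869). A second ERBB2 probe set, 210930_s_at, overlapped between the groups (log2 change 0.07, 95% interval -0.77 to 0.91), and 234354_x_at was below the filter.

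ERBB3, the HER3 gene, encodes a receptor of neuregulins with little kinase activity of its own. Its signals were low, and its brightest probe set, 1563253_s_at, read 364.7, 365 and 333.6 with Ecd siRNA and 274.2, 314.9 and 206.4 with control siRNA. The Ecd siRNA arrays were all higher, but the control arrays were spread widely. The log2 change of 0.42 (95% interval 0.04 to 0.79) did not pass (limma adjusted p = 0.117). Without control replicate 3 it was 0.26 (limma adjusted p = 0.319), and averaged over probe sets it was 0.17 (0.565). The other tested ERBB3 probe sets went both ways, 202454_s_at at 0.12, 226213_at at -0.04 and 1563252_at at -0.42, with adjusted p between 0.623 and 0.918. Of the 4 ERBB3 probe sets tested none passed in limma, and the sign depended on which was read. At an unadjusted limma p under 0.05, 1 was higher, beside 14.7% of all probe sets tested. The dim 215638_at read 82.2, 99 and 86.9 with Ecd siRNA and 71.3, 20.6 and 54.5 with control siRNA. It was wholly higher but lay below the filter.

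Counted by probe set, 30 of the 34 lay above the filter. Of those, 8 fell (26.7%) and 0 rose, where 16.9% of all 27009 probe sets tested passed, 8.62% lower and 8.30% higher. At an unadjusted limma p under 0.05, 9 family probe sets were lower and 5 higher, and 14.3% and 14.7% of all probe sets were. All 8 that fell were probe sets of EREG, TGFA or NRG1, and the other 3 of these genes' 11 probe sets had negative changes that did not pass. Signals of the 16 ligand probe sets tested were wholly lower with Ecd siRNA in 8 and wholly higher in 1, and those of the 14 receptor probe sets wholly lower in 0 and wholly higher in 2, beside 16.5% lower and 17.1% higher among all probe sets tested.

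**Figure D3:**
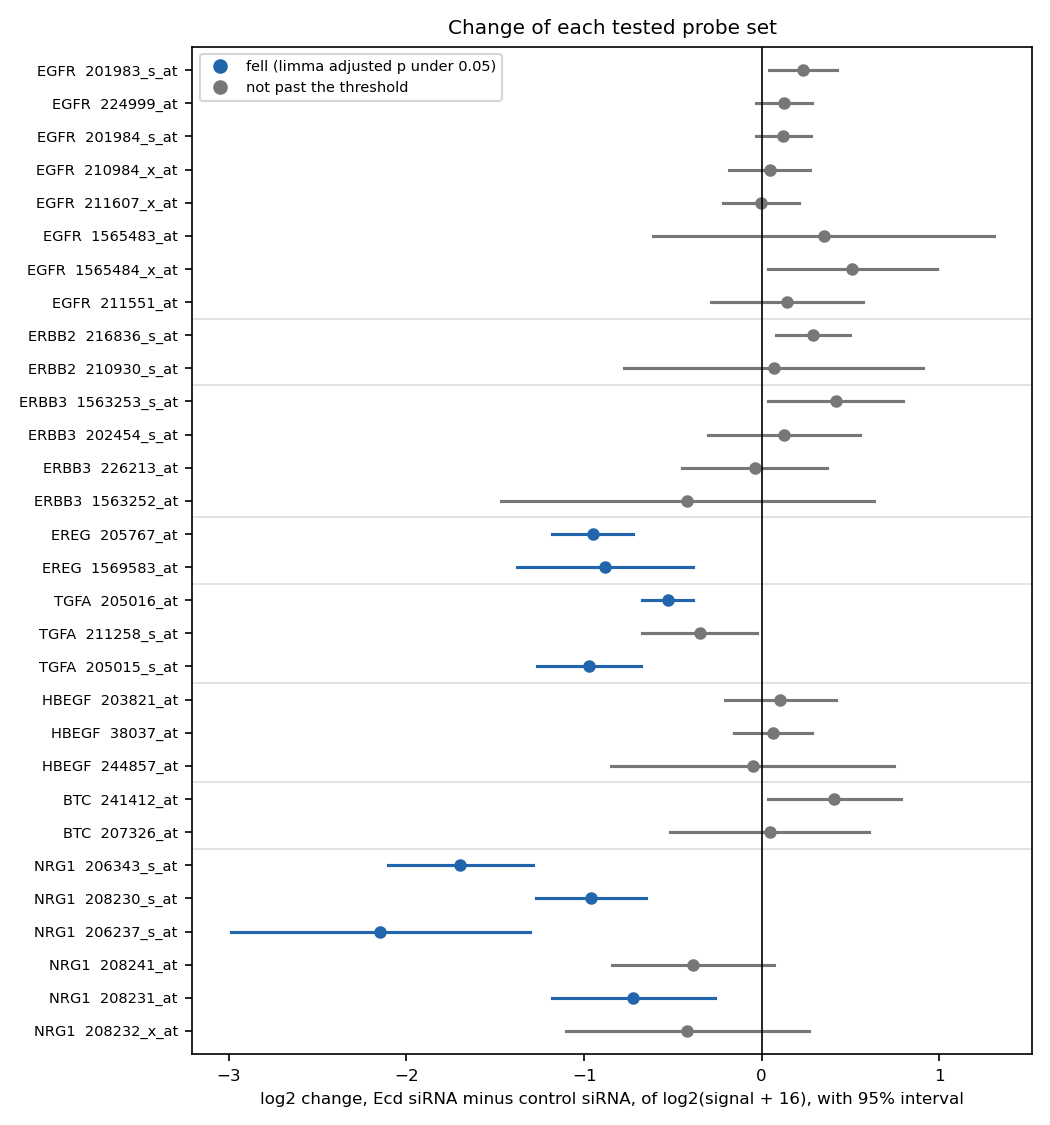
Log2 change (Ecd siRNA minus control siRNA, of log2(signal + 16)) of the 30 tested probe sets of the family, with 95% intervals from limma, grouped by gene and ordered by mean signal within a gene. The 8 in blue, of EREG, TGFA and NRG1, fell, and the 22 in grey did not pass the threshold.

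Other genes of the pathway were taken in 5 lists. Of 59 tested genes on them 11 rose (18.6%) and 7 fell (11.9%), beside 10.1% and 11.0% of all genes, and their median log2 change was 0.05. The remaining receptor and ligand genes were dim. ERBB4 averaged 181.4 ± 30.6 with Ecd siRNA and 163.2 ± 13.7 with control siRNA (SD, n = 3 each). Its log2 change of 0.13 did not pass (limma adjusted p = 0.725), NRG2 was at -0.05 (limma adjusted p = 0.897), and EGF, NRG3 and NRG4 lay below the filter. At an unadjusted limma p under 0.05, 0 of the 2 tested genes passed as well.

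Of 12 genes that release ligands or regulate their release, 2 rose (16.7%), 2 fell (16.7%) and 8 did not pass, where 10.1% of all genes rose and 11.0% fell. TIMP3, an inhibitor of ADAM17 and other metalloproteases, had signals of 6127.1, 6702 and 6233.6 with Ecd siRNA and 3815.5, 3791.3 and 4279.7 with control siRNA. Its groups lay far apart, and it rose by 0.68 on the log2 scale (limma adjusted p = 9.69e-05). Averaged over its probe sets TIMP3 was at 0.39 (limma adjusted p = 0.00291). FRMD8, whose protein stabilises the complex of ADAM17 with its iRhom carriers, rose by 0.32 (limma adjusted p = 0.0263). That call was lost without control replicate 1 or 2 (0.0884 and 0.086), without Ecd siRNA replicate 3 (0.09), with a common median (0.129), with eBayes without trend (0.0907) and with the average of its probe sets (0.378). The metalloprotease genes ADAM8 and ADAM15 fell, ADAM8 at -0.86 (limma adjusted p = 0.00523) and ADAM15 at -0.56 (0.00181). ADAM17, the main sheddase of TGFA and EREG, averaged 2578 ± 228.0 with Ecd siRNA and 2209 ± 85.5 with control siRNA (SD, n = 3 each), and at 0.22 did not pass (limma adjusted p = 0.0927). It was named for its role and after its values were seen.

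Inhibitors and turnover factors of the receptors went both ways, with 3 of 21 higher (14.3%), 4 lower (19.0%) and 14 not past the threshold. ERRFI1, whose protein MIG6 binds and inhibits the EGFR kinase, had signals of 7631.1, 7881.7 and 6768.4 with Ecd siRNA, against 5430.3, 5129.5 and 5726.7 with control siRNA. It rose by 0.45 (SE 0.08, limma adjusted p = 0.00187). CBLB, a ubiquitin ligase that directs receptors to degradation, had signals of 1642, 1858.1 and 1773.6 with Ecd siRNA, against 982.7, 1006.4 and 1050.2 with control siRNA. It rose by 0.78 (SE 0.08, limma adjusted p = 0.000103). The average of its 3 probe sets, of which 2 lay above the filter, was only at 0.35 (limma adjusted p = 0.17). In both genes every Ecd siRNA array was above every control array, as in 18.1% of all genes tested.

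Some relatives within this list had changes of opposite sign in their brightest probe sets. LRIG1, which encodes a membrane protein that promotes receptor degradation, fell by 0.51 (limma adjusted p = 0.00629), while its relative LRIG3 rose by 0.59 (0.0193). Averaged over its 4 probe sets, of which 1 lay above the filter, LRIG1 was at -0.48 (limma adjusted p = 0.254). The LRIG3 call was lost without control replicate 1 or 2 (0.0532 and 0.0619) and without Ecd siRNA replicate 2 or 3 (0.0686 and 0.0681) and with eBayes without trend (0.085). Likewise CBLC, the epithelial relative of CBLB, averaged 293.8 ± 98.5 with Ecd siRNA and 541.1 ± 40.9 with control siRNA (SD, n = 3 each). It fell by 0.89 (limma adjusted p = 0.00895). The average of its 2 probe sets, of which 1 lay above the filter, was at -0.73 (limma adjusted p = 0.178). The adaptor gene SH3KBP1, whose protein CIN85 acts with CBL in receptor endocytosis, fell by 0.35 (limma adjusted p = 0.00704). SOCS5 was at -0.27, just past the threshold (limma adjusted p = 0.0491), and lost its call on leaving out any of the 6 arrays (adjusted p 0.0796 to 0.15). LRIG3, CBLC and SOCS5 were named to complete these counts, after their values were seen. Also named afterwards, LRIG2 was at 0.34 and CBL at -0.13, neither past the threshold (limma adjusted p = 0.101 and 0.381).

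Downstream of the receptors, 2 of 13 tested adaptor and RAS-ERK genes rose (15.4%) and 1 fell (7.69%), close to the 10.1% and 11.0% of all genes. The RAS exchange factor genes SOS2 (log2 change 0.58, limma adjusted p = 0.00108) and SOS1 (0.34, 0.0229) rose and HRAS fell (-0.38, 0.00605). The SOS1 call was lost without control replicate 1 or 3 (0.0644 and 0.0718), without Ecd siRNA replicate 2 or 3 (0.067 and 0.0759), with a common median (0.0843) and with the average of its probe sets (0.422), where SOS2 was lost too (0.0794). Of 11 genes in the PI3K, STAT and SRC arm 4 rose (36.4%) and 0 fell in limma, beside 10.1% and 11.0% of all genes, with a median log2 change of 0.32. At an unadjusted p under 0.05, 5 were higher and 0 lower, beside 15.9% and 16.4% of all genes. PIK3R1, the regulatory subunit p85 alpha of PI3K, had signals of 2916.8, 2340.3 and 2257 with Ecd siRNA and 1554.9, 1564.8 and 1475.3 with control siRNA, a log2 change of 0.69 (limma adjusted p = 0.000754). It stood wholly higher with Ecd siRNA, and in a probe set without _s or _x it was at 0.35 (limma adjusted p = 0.0337). The adaptor gene NCK1 rose by 0.46 (limma adjusted p = 0.000583), STAT3 by 0.39 (0.00198) and the kinase gene PDPK1 by 0.42 (0.00294). The average of the 6 PDPK1 probe sets, of which 3 lay above the filter, was at 0.23 (limma adjusted p = 0.353). In a probe set without _s or _x the gene was at 0.005 (limma adjusted p = 0.986).

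**Figure D4:**
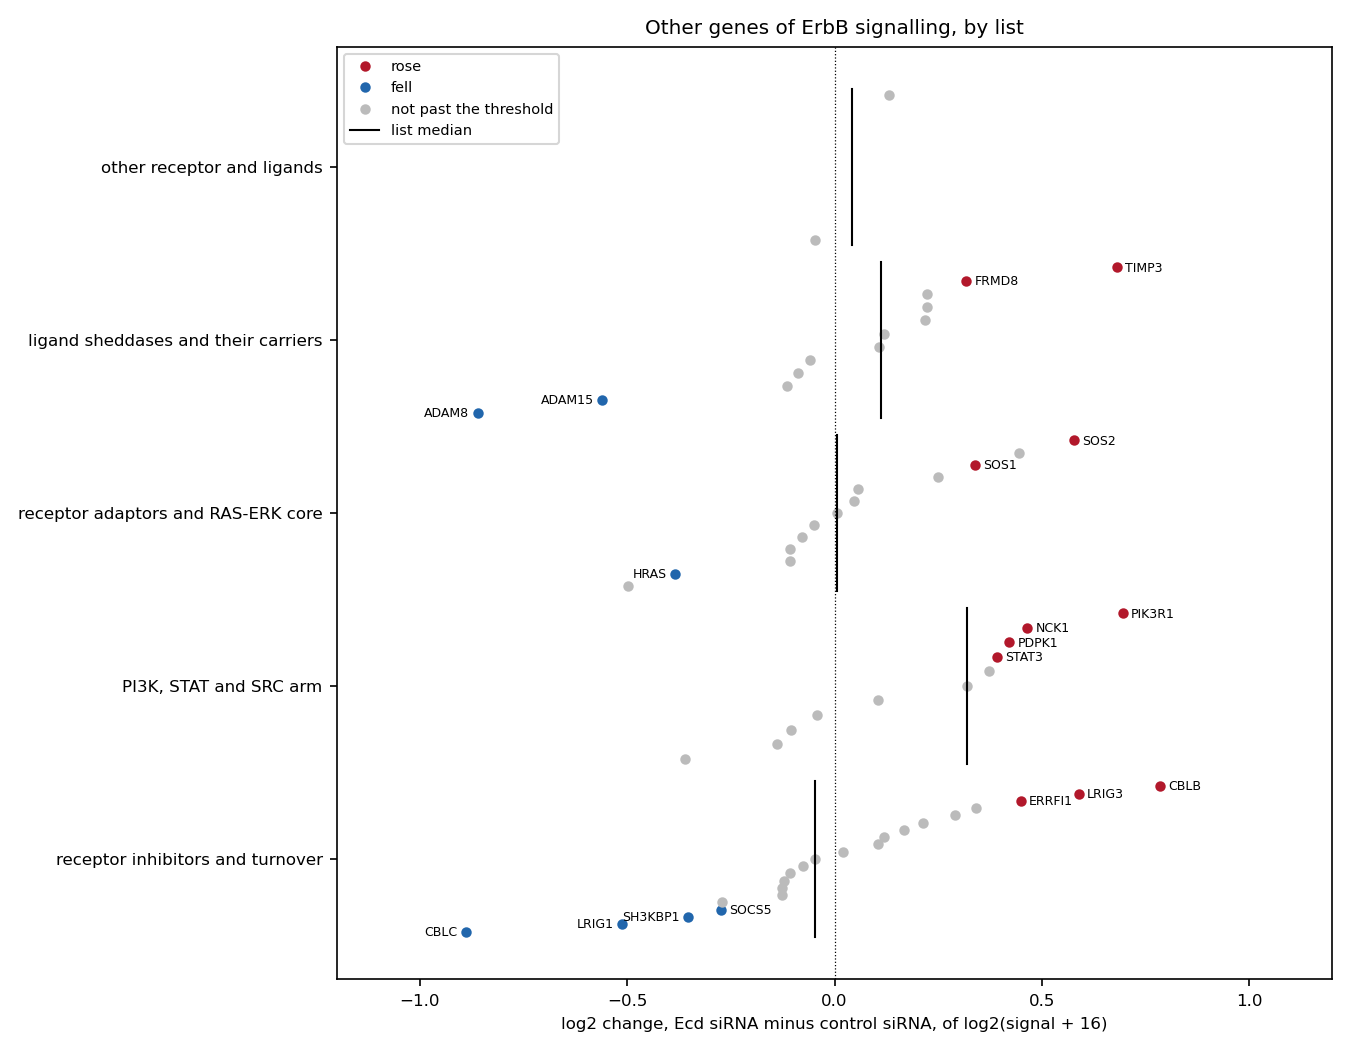
Log2 change (Ecd siRNA minus control siRNA, of log2(signal + 16)) of each tested gene on the 5 pathway lists, red where it rose, blue where it fell and grey where it did not pass the threshold, with the list median as a black line. The PI3K, STAT and SRC arm has 4 rises and 0 falls, and the list of inhibitors and turnover has 3 rises and 4 falls.

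Likeness of pattern was measured as the root mean square difference of log2 values over the 6 arrays, each gene centred on its control mean. The 3 genes nearest to NRG1, the family gene with the largest fall in its brightest probe set, were GINS4 (difference 0.08), CDCA7 (0.16) and BCL2A1 (0.16), with log2 changes of -1.64, -1.72 and -1.71. Nearest to ERBB2 were DCUN1D3, ZBTB4 and NME3 (each 0.03), with log2 changes of 0.29, 0.28 and 0.32. Of these ZBTB4 passed the threshold (limma adjusted p = 0.025), and DCUN1D3 and NME3 did not (0.0612 and 0.0619). The measure picks genes of like log2 change by its making, so the likeness of these changes is no separate result.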

How the data were processed

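RNA of 6 cultures of 76N cells (3 Ecd siRNA, 3 control siRNA) was read on 1 Affymetrix array each. The authors deposited 1 linear MAS5 intensity per probe set and array, per the submitters' processing notes. The MAS5 version and its scaling target are not stated there. The trimmed mean (percentiles 2 to 98) was 499.6 to 499.8 on every array, which leaves a shift common to every transcript invisible.

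Gene symbols came from GEO's annotation of the array. Of 54675 probe sets, 41091 had 1 gene symbol, 1801 several, 11721 none there, and 62 were controls. All 34 family probe sets matched RefSeq gene identifiers of GRCh38.p14. Probe sets ending in _s_at or _x_at can bind related transcripts. Each gene was read by its brightest probe set (mean of log2(signal + 16) over 6 arrays), and tested if that lay in the upper 60% of probe sets (signal 84.6). Fold changes are on the log2(signal + 16) scale, which understates the change of dim genes.

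The groups were compared in limma 3.58.1 (lmFit, eBayes with trend; R 4.3.3), with Benjamini-Hochberg adjustment over all 14603 genes and a threshold of 0.05. A second fit took the 27009 single-symbol probe sets above the filter. Values of brightest probe sets are from the first fit and those of other probe sets from the second. The fits were tested on simulated data. The number of arrays limits the precision, and p-values rest on the variation among 6 cultures. Values on 2 groups of 3 arrays allow no exact p under 0.1.

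Named genes were all family genes, ECD, up to 4 genes per pathway list with the smallest adjusted p past the threshold (or the 2 smallest), the 3 brightest markers per marker list, and the 3 genes most like the family genes with the largest fall and rise. Members and lists were chosen with earlier results of these data known. Alternatives were quantile normalization, pseudocounts of 1 and 64, a common median per array, the upper 40% or no filter, the mean of probe sets, probe sets without _s or _x, eBayes without trend, a block for the replicate number, and fits without each array in turn. The mean of probe sets took every single-symbol probe set of a tested gene, also those below the filter.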

Additional observations from a re-analysis of the deposited data

How the results depend on the processing

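The falls of EREG and TGFA passed the threshold under all 16 alternatives, at log2 changes of -1.05 to -0.86 and -0.62 to -0.50, and that of NRG1 under 15, the exception being probe sets without _s or _x (-0.39). ECD passed in all 16 (-0.85 to -0.77). On leaving out 1 array in turn, 3 family genes fell each time and between 0 and 1 rose, 0 to 1 family probe sets rose, and 9 to 12 genes on the pathway lists rose. The count of family genes that rose was 0 with a common median, without a filter, with the mean of probe sets, with probe sets without _s or _x and with eBayes without trend, against 1 as reported, that of ERBB2. With the replicate block it was 1, EGFR (adjusted p 0.0289) in place of ERBB2 (0.0612). By probe set it was 1 with the upper 40% and 2 with the replicate block, against 0. With the mean of probe sets 7 pathway genes rose and 4 fell, against 11 and 7. The causes were not tested. Whether replicate numbers mark paired cultures was not settled. Deviations of same-numbered arrays correlated weakly over genes, at -0.01, 0.08 and 0.15. Ecd siRNA replicates 2 and 3 correlated best with the control array of the same number, and Ecd siRNA replicate 1 with control replicate 2 (0.03). With the replicate block, 1582 genes rose and 1695 fell, against 1468 and 1607. The call of NRG1 probe set 208231_at was lost with it (adjusted p 0.0504). Of 34 family probe sets 4 were too dim to test.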
